A study of Homo sapiens with 5 samples.

Results

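The genes described here are 51 genes that act in copying DNA or mark cells in S phase, out of 33538 genes in the count matrix. They were picked by name for these roles and not by their values, though with earlier results of these data known. All 51 averaged 5 CPM or more in the 5 samples. CPM is a gene's share of a sample's UMIs (unique transcript tags), so that samples of unequal depth can be compared. Their levels were followed in MDA-MB-468, an established human triple-negative breast cancer line, in cells where the gene FOSL1 was raised and in matched controls. The protein it encodes, FRA-1, pairs with JUN proteins to form AP-1. The groups were HA FOSL1 and its HA control, and VPR FOSL1 gRNA2 and VPR FOSL1 gRNA3 (different guide RNAs for FOSL1) with the VPR control, each 1 sample of the same line, marked with a hashtag antibody, pooled and read as 1 library of 3' transcript tags. The labels do not spell out HA or VPR, give treatment with 5-FU (5-fluorouracil, which itself perturbs nucleotide supply) for the series without saying whether these samples received it, and do not say that the samples came from separate cultures.

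DNA is copied once per cell cycle, in S phase. The MCM helicase is loaded on origins in G1 by CDC6 and CDT1, is switched on with CDC45 and the GINS complex, and is followed by primase, polymerases, the sliding clamp PCNA and the histone chaperones that rebuild chromatin. Many of these genes are transcribed together around the step from G1 into S phase by E2F factors, which RB family proteins hold in check, so their RNA is widely used to mark cells in or near S phase.

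After filtering, the samples held 1826 to 4299 cells and 42058533 to 85556699 gene UMIs, and the 51 genes gave 0.31% of those UMIs. The median HA FOSL1 cell held 20768.5 UMIs, against 15401.5 for HA control cells, and gRNA2 and gRNA3 cells had 17414.5 and 18121 against 15810 in the VPR control, so that comparisons per cell below use cells thinned to 5000 UMIs. FOSL1 stood at 63.5 CPM in HA FOSL1 cells, against 8.96 CPM in the HA control, and 101 with gRNA2 and 94.3 with gRNA3, against 8.91 CPM in the VPR control. The line's markers EGFR, KRT5, KRT17, KRT8, KRT18 and EPCAM were all above 200 CPM in each sample, while PGR had no UMI and ESR1, PTPRC, PECAM1, COL1A1 and PDGFRB were all under 5 CPM. With 1 sample per group no difference between a pair of samples has a replicate check: ratios are given on the log2 scale of CPM + 1 with 95% intervals that cover counting error only. A model of all 5 samples (edgeR) treats HA FOSL1, gRNA2 and gRNA3 as repeats of the same effect, so its p-values rest on how far those constructs differ within 1 pool.

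The sequence before the gene's start is shown for 6 of the genes, because E2F is the factor known for driving this group and AP-1 is the factor that FOSL1 belongs to. RefSeq promoter entries (GRCh38.p14) were matched for 42 of the 51 genes, and the 250 bases before the start were searched on both strands for the E2F letters TTTCCCGC, TTTCGCGC, TTTGCCGC or TTTGGCGC and the AP-1 letters TGANTCA. Each line below gives the strand's 250 bases from 5' to 3', with matches in capitals. The genes with no entry were MCM4, RPA2, WDR76, MCM5, DSCC1, ATAD2, POLD3, E2F8 and CCNE2.
MCM6, chr2:135876444-135876693, minus strand: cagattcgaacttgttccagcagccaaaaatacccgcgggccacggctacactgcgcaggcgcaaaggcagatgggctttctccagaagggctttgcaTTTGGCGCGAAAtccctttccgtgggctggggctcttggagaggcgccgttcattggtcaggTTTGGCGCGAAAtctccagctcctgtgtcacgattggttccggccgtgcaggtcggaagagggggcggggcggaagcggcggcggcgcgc
MCM7, chr7:100101398-100101647, minus strand: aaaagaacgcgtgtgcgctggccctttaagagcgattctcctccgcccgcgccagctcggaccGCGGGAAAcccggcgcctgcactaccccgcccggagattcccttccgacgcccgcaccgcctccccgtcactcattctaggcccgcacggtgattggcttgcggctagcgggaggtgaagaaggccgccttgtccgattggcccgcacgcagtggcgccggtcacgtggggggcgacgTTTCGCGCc
HELLS, chr10:94545538-94545787, plus strand: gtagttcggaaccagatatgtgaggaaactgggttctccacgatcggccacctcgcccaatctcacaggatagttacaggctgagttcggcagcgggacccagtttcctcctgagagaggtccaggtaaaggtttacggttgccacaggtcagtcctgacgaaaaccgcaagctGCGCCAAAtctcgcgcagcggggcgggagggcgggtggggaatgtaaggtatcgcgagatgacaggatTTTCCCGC
E2F1, chr20:33686386-33686635, minus strand: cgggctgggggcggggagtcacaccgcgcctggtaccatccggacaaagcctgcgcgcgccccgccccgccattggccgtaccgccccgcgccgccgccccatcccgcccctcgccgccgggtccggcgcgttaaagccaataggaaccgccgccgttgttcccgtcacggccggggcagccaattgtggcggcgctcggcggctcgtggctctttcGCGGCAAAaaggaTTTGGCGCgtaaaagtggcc
RFC3, chr13:33817899-33818148, plus strand: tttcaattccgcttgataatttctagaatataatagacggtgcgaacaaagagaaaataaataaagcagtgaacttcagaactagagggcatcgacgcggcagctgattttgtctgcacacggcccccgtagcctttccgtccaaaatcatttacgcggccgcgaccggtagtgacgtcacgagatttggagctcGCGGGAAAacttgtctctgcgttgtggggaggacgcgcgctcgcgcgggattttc
GINS1, chr20:25407423-25407672, plus strand: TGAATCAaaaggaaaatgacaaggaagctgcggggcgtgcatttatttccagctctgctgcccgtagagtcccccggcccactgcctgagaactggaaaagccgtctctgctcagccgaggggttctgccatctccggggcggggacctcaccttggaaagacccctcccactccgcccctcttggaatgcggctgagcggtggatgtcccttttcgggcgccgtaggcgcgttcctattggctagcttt

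The E2F letters were found before 15 of 42 replication genes (35.7%), against 4.91% of 7835 genes at 5 CPM or more and 2.79% of all 27305 promoters. The 15 genes were MCM3, MCM6, MCM7, CDT1, GINS2, POLA1, PCNA, RFC3, UHRF1, HELLS, CDCA7, UBR7, DTL, E2F1 and CASP8AP2. In MCM6 the run TTTGGCGCGAAA occurred at 2 places, each holding a match on each strand that overlap, which gives 4 matches. HELLS ended on the letters TTTCCCGC directly before its start, and in MCM7 the nearer match began 9 bases before the start. The AP-1 letters were found before 1 of 42 genes (2.38%), against 3.47% of the genes at 5 CPM or more and 6.6% of all promoters. That gene was GINS1, where TGAATCA opened the window, 250 bases before the start, and its level was 17.5 CPM in HA FOSL1 cells, against 18.3 CPM in the HA control, and 17.8 with gRNA2 and 16.8 with gRNA3, against 18.4 CPM in the VPR control. The letter N stood for any base and was A in GINS1, and no other spelling of an AP-1 site was searched. A match is a run of letters and was not tested as a binding site. The letters CCAAT, searched in the same way and with overlaps between motifs not removed, were present before 27 of 42 genes (64.3%), against 36.1% and 33.0% in the same reference sets.

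Taken as a sum, the 51 genes were slightly lower in HA FOSL1 cells than in the HA control and close to the VPR control with either guide. Their summed level was 2858 CPM in HA FOSL1 cells against 3058 CPM in the HA control, and 3209 CPM with gRNA2 and 3144 CPM with gRNA3 against 3181 CPM in the VPR control. The log2 ratio of the sums was -0.10 in HA (-0.11 to -0.09), 0.01 with gRNA2 (0.00 to 0.02) and -0.02 with gRNA3 (-0.03 to -0.01). The closeness with the guides depended on the cell filter. In cells of at most 10% mitochondrial UMIs the ratio was -0.098 in HA, -0.067 with gRNA2 and -0.065 with gRNA3, so each arm lay below its control. The controls themselves differed by 0.06 (VPR control over HA control). In empty droplets of the same library, which hold free RNA, the sum was 3017.5 CPM, between the levels of the cells.

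By role, the summed genes of the helicase had a log2 ratio of -0.20 in HA (95% counting interval -0.22 to -0.17), 0.03 with gRNA2 and 0.01 with gRNA3. Histone supply and chromatin genes had -0.17 in HA (-0.19 to -0.14), -0.02 with gRNA2 and -0.07 with gRNA3. G1/S cyclins and transcription factors had -0.13 in HA (-0.18 to -0.07), -0.04 with gRNA2 and -0.07 with gRNA3. Helicase activation genes had -0.05 in HA, 0.12 with gRNA2 (0.07 to 0.16) and 0.11 with gRNA3 (0.07 to 0.15). The sums of the other 4 roles, namely licensing, primase and clamp, nucleotide supply, and fork protection, lay between -0.09 and 0.04 in the 3 arms. By these sums the helicase and chromatin genes were farthest below the control in HA, and the activation genes farthest above it in VPR. A sum gives most weight to the genes with the most UMIs. The median log2 ratio of the single genes in HA was -0.23 for the helicase but 0.01 for histone supply and chromatin. For helicase activation the median was 0.10 with gRNA2 and 0.03 with gRNA3.

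Single genes differed little as well. The median log2 ratio of the 51 genes was -0.07 in HA, against -0.03 for all 9853 genes at 5 CPM or more, 0.03 with gRNA2 against 0.00, and -0.01 with gRNA3 against -0.01. In HA the ratios ran from -0.38 (MCM2) to 0.22 (CHAF1B), with gRNA2 from -0.23 (UBR7) to 0.24 (GINS3), and with gRNA3 from -0.27 (UBR7) to 0.27 (UNG). In HA 21 of 51 genes lay above the control, against 46.0% of all genes, with gRNA2 29 of 51, against 50.4%, and with gRNA3 22 of 51, against 46.4%. In HA 0 of 51 genes were at least 1.2-fold higher, against 16.3% of all genes, and 8 of 51 were at least 1.2-fold lower, against 17.7%. With gRNA2 no gene reached 1.2-fold in either direction, against 5.47% of all genes higher and 5.4% lower. With gRNA3 UNG was at least 1.2-fold higher, against 5.52% of all genes, and UBR7 at least 1.2-fold lower, against 7.13%. No replication gene reached 1.5-fold in any of the 3 arms, a size that 5.89% of all genes exceeded upward and 3.48% downward in HA, 1.27% and 0.842% with gRNA2, and 1.25% and 1.29% with gRNA3. Between the controls, GINS3 was at least 1.2-fold lower in the VPR control, against 1.65% of all genes, and 0 of 51 were higher, against 1.77%.

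**Figure D1:**
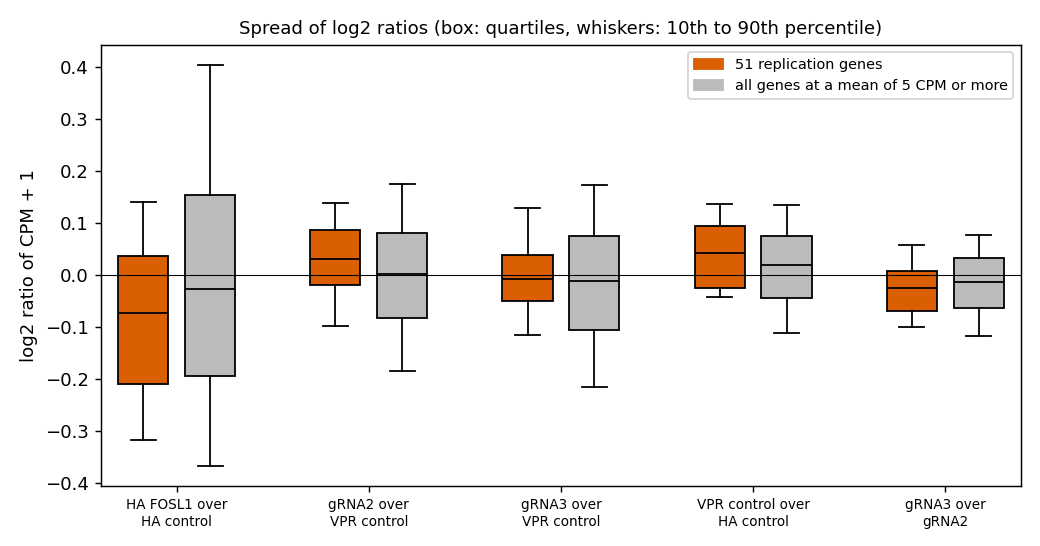
Spread of log2 ratios of CPM + 1 (vertical axis) for the 51 replication genes (orange) and for all 9853 genes at a mean of 5 CPM or more (grey), in 5 comparisons of samples. Boxes are quartiles, the line is the median and whiskers run from the 10th to the 90th percentile. In HA the replication genes run from -0.32 to 0.14 and all genes from -0.37 to 0.41.

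The 90th percentile in HA was 0.14 for replication genes and 0.41 for all genes, while the 10th percentiles were -0.32 and -0.37. In the model of all 5 samples, edgeR called 0 replication genes higher and 0 lower with FOSL1 at a Benjamini-Hochberg adjusted p under 0.05, against 0.9% and 0.706% of 15439 genes tested. At an unadjusted p under 0.05 there were 3 that leaned higher (MCM5, UHRF1, TIPIN) and 4 that leaned lower (NASP, CDCA7, UBR7, CASP8AP2), against 13.4% and 12.6% of all genes, and DESeq2 called 0 at an adjusted p under 0.05 (1 in each direction unadjusted). The lowest adjusted p was that of MCM5, 0.091 in edgeR, and standard errors over the 51 genes ran from 0.04 to 0.13 log2. These counts rest on which samples enter: without the VPR control, edgeR called 5 of the 51 higher and 13 lower, among 5937 of 16049 genes called, and without the HA FOSL1 sample or without the HA control it called MCM5, GINS2 and UNG higher. Without gRNA2 or without gRNA3 it called 0 of the 51, and also 0 of all genes.

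**Figure D2:**
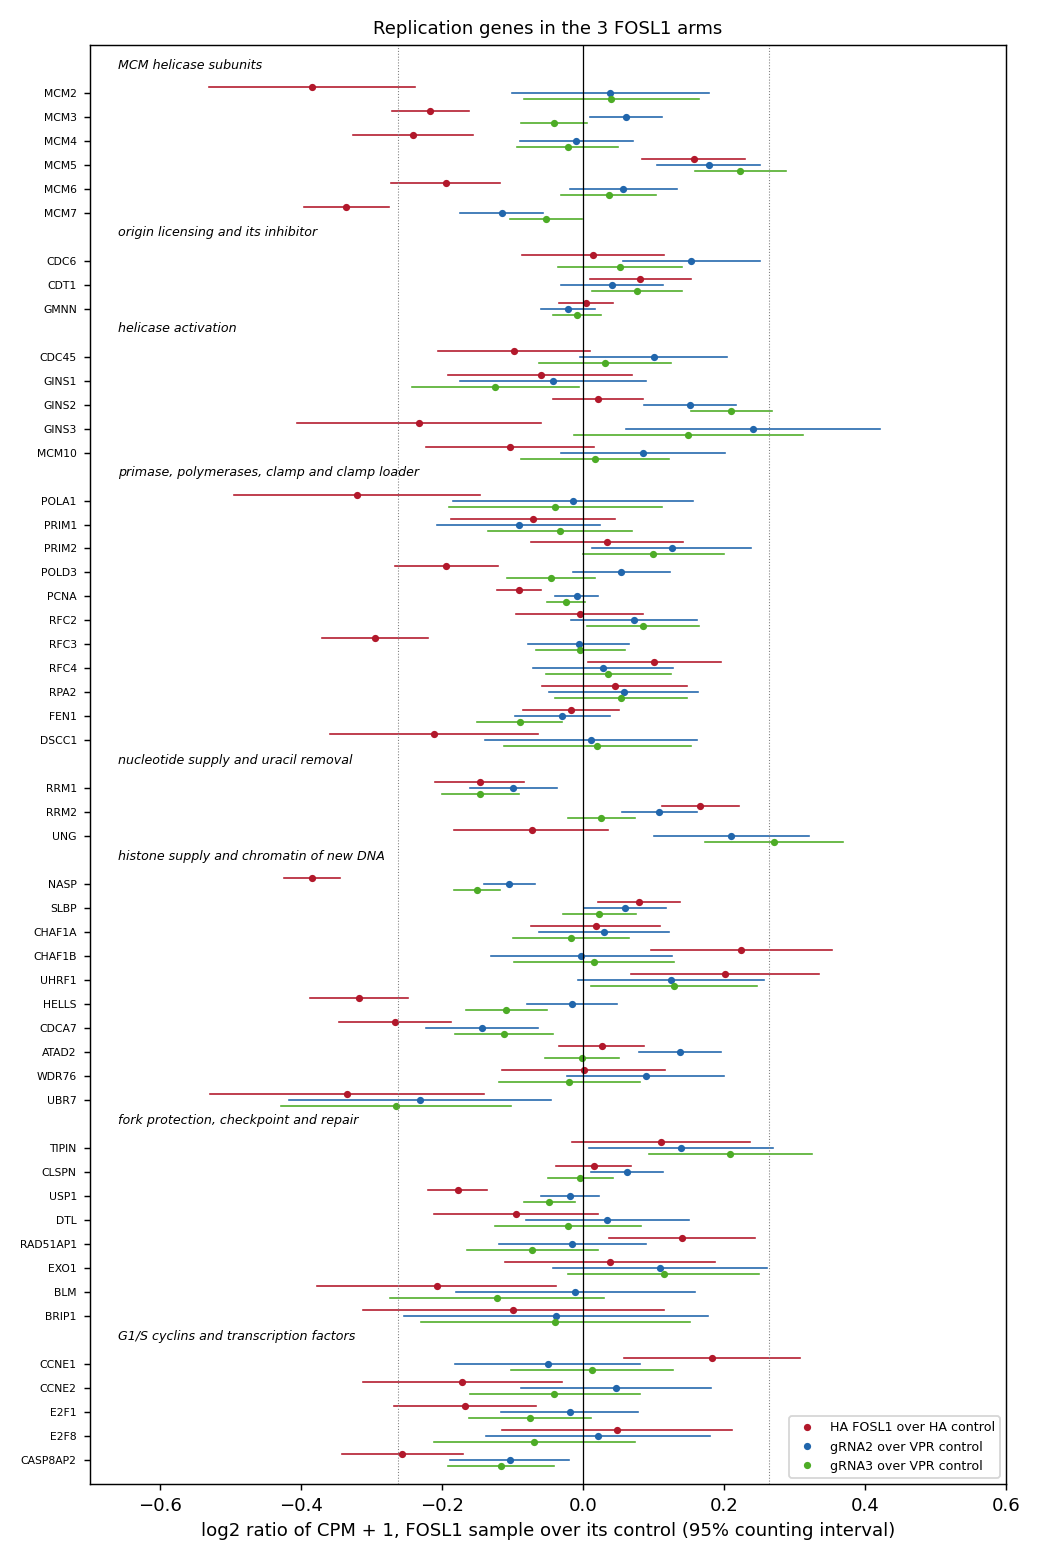
Log2 ratio of CPM + 1 of each replication gene (horizontal axis), FOSL1 sample over its own control, with genes grouped by role; points are the HA (red), gRNA2 (blue) and gRNA3 (green) arms, bars are 95% counting intervals and dotted lines mark 1.2-fold. Most points lie within the dotted lines, and the red points of 8 genes lie beyond the lower line.

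The model that tests whether the HA arm differs from the VPR arms called 3 of 51 genes lower in HA (edgeR interaction, adjusted p under 0.05), against 3.81% of the 16071 genes tested, and 0 higher, against 8.37%. The genes were MCM2, RFC3 and NASP. At an unadjusted p under 0.05 there were 11 lower and 2 higher, among them MCM2, MCM3, MCM4, MCM6 and MCM7 on the lower side and CHAF1B and RAD51AP1 on the higher side, against 10.5% and 15.4% of all genes. DESeq2 called 0 of the 51 and had 1 at an unadjusted p under 0.05, with differences of -0.42 for MCM2, -0.27 for RFC3 and -0.23 for NASP. The interaction has 1 residual degree of freedom, which comes from gRNA2 and gRNA3. The HA samples and the VPR control have no repeat in this model. Its standard errors and p-values thus rest on how far the guides differ, and do not measure a spread of the HA samples. In cells thinned to 5000 UMIs edgeR called MCM7 and NASP and not MCM2 and RFC3.

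The MCM2 to MCM7 proteins form the ring-shaped helicase that unwinds DNA ahead of the fork. Their 6 genes summed to 357 CPM in HA FOSL1 cells against 409 CPM in the HA control, and to 424 CPM with gRNA2 and 419.8 CPM with gRNA3 against 416 CPM in the VPR control. MCM2 (ENSG00000073111) was at 12.3 CPM in HA FOSL1 cells, against 16.4 CPM in the HA control, and 16.3 with gRNA2 and 16.4 with gRNA3, against 15.9 CPM in the VPR control. It was thus lowest in HA FOSL1 cells and between 15.9 and 16.4 CPM in the other 4 samples. Its log2 ratio was -0.38 (95% counting interval -0.53 to -0.24) in HA, 0.04 with gRNA2 and 0.04 with gRNA3, and the difference between the systems was -0.43 (SE 0.11, edgeR adjusted p = 0.025). MCM7 was at 82.5 CPM in HA FOSL1 cells, against 104 CPM in the HA control, and 94.0 with gRNA2 and 98.2 with gRNA3, against 102 CPM in the VPR control, which is below the control in all 3 arms, and its log2 ratios were -0.34, -0.12 and -0.05 in HA, gRNA2 and gRNA3. Its interaction missed the threshold, at -0.23 (edgeR adjusted p = 0.083).

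MCM5 was the helicase subunit with the opposite lean. It was at 63.7 CPM in HA FOSL1 cells, against 57.1 CPM in the HA control, and 68.9 with gRNA2 and 71.2 with gRNA3, against 60.8 CPM in the VPR control, so each FOSL1 sample lay above its own control. The log2 ratios were 0.16, 0.18 and 0.22 in HA, gRNA2 and gRNA3, and the effect over the arms was 0.21 (SE 0.05, edgeR adjusted p = 0.091), which missed the threshold. MCM3, MCM4 and MCM6 had log2 ratios of -0.22, -0.24 and -0.19 in HA and between -0.04 and 0.06 with the guides. In HA 5 of the 6 helicase genes were hence below the control, and MCM5 was above it.

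Licensing of origins is carried by CDC6 and CDT1, which bring the helicase to DNA, and is blocked by GMNN (geminin), which binds CDT1. CDC6 was at 31.0 CPM in the HA FOSL1 sample and 30.7 CPM in the HA control, and 37.0 (gRNA2) and 34.5 (gRNA3) against 33.2 CPM in the VPR control. CDT1 had log2 ratios of 0.08, 0.04 and 0.08 in HA, gRNA2 and gRNA3. GMNN was at 227 CPM in HA FOSL1 cells, against 227 CPM in the HA control, and 233 with gRNA2 and 235 with gRNA3, against 237 CPM in the VPR control. The 5 samples thus lay within 227 to 237 CPM for GMNN, and none of the 3 licensing genes reached 1.2-fold.

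CDC45 and the GINS complex bind the loaded MCM ring and turn it into the active helicase, and MCM10 takes part in that step. GINS2 was at 79.2 CPM in HA FOSL1 cells, against 78.1 CPM in the HA control, and 85.5 with gRNA2 and 89.1 with gRNA3, against 76.9 CPM in the VPR control. It lay above the control with both guides, with log2 ratios of 0.15 and 0.21, and near it in HA at 0.02. GINS3 was at 8.70 CPM in HA FOSL1 cells, against 10.4 CPM in the HA control, and 9.86 with gRNA2 and 9.20 with gRNA3, against 8.20 CPM in the VPR control, and the HA control was the highest sample and the VPR control the lowest. Its arms therefore leaned in opposite directions (-0.23, 0.24 and 0.15 in HA, gRNA2 and gRNA3), while the controls differed by -0.31, more than any arm did. GINS1 had log2 ratios of -0.06, -0.04 and -0.12, CDC45 of -0.10, 0.10 and 0.03 and MCM10 of -0.10, 0.09 and 0.02 in the same order of arms.

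Primase and polymerase alpha start each new strand, the clamp loader RFC sets PCNA on DNA, and FEN1 trims the ends of lagging-strand pieces. RFC3 (ENSG00000133119), a clamp loader subunit, was at 53.0 CPM in HA FOSL1 cells, against 65.2 CPM in the HA control, and 66.3 with gRNA2 and 66.4 with gRNA3, against 66.6 CPM in the VPR control. The 4 other samples lay between 65.2 and 66.6 CPM, and HA FOSL1 cells below them. Its log2 ratio was -0.29 (95% counting interval -0.37 to -0.22) in HA, -0.01 with gRNA2 and 0.00 with gRNA3, and the difference between the systems was -0.27 (SE 0.08, edgeR adjusted p = 0.044). The other clamp loader genes lay nearer to or above the control: RFC2 and RFC4 had log2 ratios of 0.00 and 0.10 in HA.

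POLA1, the catalytic subunit of polymerase alpha, was at 8.23 CPM in HA FOSL1 cells, against 10.5 CPM in the HA control, and 10.1 with gRNA2 and 9.92 with gRNA3, against 10.2 CPM in the VPR control. It was lowest in HA FOSL1 cells, with a log2 ratio of -0.32 (95% counting interval -0.50 to -0.15), and within 0.04 of the control with both guides. The primase genes PRIM1 (-0.07 in HA) and PRIM2 (0.03 in HA) stayed nearer to the control. PCNA, which had the highest level of the 51 genes, was at 334 CPM in HA FOSL1 cells, against 356 CPM in the HA control, and 363 with gRNA2 and 359 with gRNA3, against 365 CPM in the VPR control. All 5 samples were thus within 334 and 365 CPM for the clamp, with log2 ratios of -0.09, -0.01 and -0.02 in HA, gRNA2 and gRNA3. POLD3, an accessory subunit of polymerase delta, and DSCC1, part of an alternative clamp loader, had log2 ratios of -0.19 and -0.21 in HA and within 0.06 of the control with the guides. RPA2, a subunit of the protein that coats single-stranded DNA, had 0.05, 0.06 and 0.05, and FEN1 had -0.02, -0.03 and -0.09 in the 3 arms.

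Ribonucleotide reductase makes the deoxynucleotides, and its subunits lay on opposite sides of their controls. RRM1, the large subunit, was at 78.0 CPM in HA FOSL1 cells, against 86.4 CPM in the HA control, and 86.8 with gRNA2 and 84.0 with gRNA3, against 93.0 CPM in the VPR control, which is below the control in all 3 arms (log2 -0.15, -0.10 and -0.15 in HA, gRNA2 and gRNA3). RRM2, the small subunit whose level follows S phase, was at 116 CPM in HA FOSL1 cells, against 103 CPM in the HA control, and 128 with gRNA2 and 121 with gRNA3, against 119 CPM in the VPR control, which is above the control in all 3. The HA control was its lowest sample, and the VPR control exceeded it by 0.20, more than the 0.17 of the HA arm. UNG, which removes uracil from DNA, was at 25.7 CPM in HA FOSL1 cells, against 27.0 CPM in the HA control, and 29.6 with gRNA2 and 30.9 with gRNA3, against 25.5 CPM in the VPR control. Both guides lay above the VPR control (log2 0.21 and 0.27) and HA FOSL1 cells slightly below theirs (-0.07), and the edgeR interaction of -0.31 missed the threshold (adjusted p = 0.066).

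Of the 10 genes of histone supply and the chromatin of new DNA, 4 were at least 1.2-fold lower in HA, against 17.7% of all genes, with no test of the role. NASP (ENSG00000132780), a chaperone of histone H3-H4, was at 193 CPM in HA FOSL1 cells, against 252 CPM in the HA control, and 247 with gRNA2 and 239 with gRNA3, against 266 CPM in the VPR control. HA FOSL1 cells were the lowest sample, and both guides were below the VPR control as well. Its log2 ratio was -0.38 (95% counting interval -0.42 to -0.35) in HA, -0.10 with gRNA2 and -0.15 with gRNA3, the effect over the arms was -0.22 (SE 0.07, edgeR adjusted p = 0.13), and the difference between the systems was -0.24 (SE 0.07, edgeR adjusted p = 0.040). HELLS, a chromatin remodeller that takes part in DNA methylation, was at 61.6 CPM in HA FOSL1 cells, against 77.0 CPM in the HA control, and 82.2 with gRNA2 and 77.0 with gRNA3, against 83.1 CPM in the VPR control, and its partner CDCA7 was at 47.4 CPM in the HA FOSL1 sample and 57.2 CPM in the HA control, and 50.7 (gRNA2) and 51.8 (gRNA3) against 56.1 CPM in the VPR control. Both were below the control in each arm, HELLS by log2 ratios of -0.32, -0.02 and -0.11 and CDCA7 by -0.27, -0.14 and -0.11 in HA, gRNA2 and gRNA3.

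UBR7, of the UBR family of ubiquitin ligases, was the gene with the largest fitted change of the 51. It was at 6.23 CPM in HA FOSL1 cells, against 8.12 CPM in the HA control, and 7.58 with gRNA2 and 7.38 with gRNA3, against 9.07 CPM in the VPR control, and each FOSL1 sample was below its own control. The effect over the arms was -0.30 (SE 0.08, edgeR adjusted p = 0.11) and missed the threshold, at a level of under 10 CPM in every sample. CHAF1B, a subunit of the histone chaperone CAF-1, was at 19.7 CPM in HA FOSL1 cells, against 16.7 CPM in the HA control, and 19.4 with gRNA2 and 19.7 with gRNA3, against 19.5 CPM in the VPR control, where the HA control stood apart as the lowest sample. Its partner CHAF1A had log2 ratios of 0.02, 0.03 and -0.02. UHRF1, which guides maintenance methylation, was at 18.2 CPM in HA FOSL1 cells, against 15.7 CPM in the HA control, and 19.2 with gRNA2 and 19.3 with gRNA3, against 17.5 CPM in the VPR control, and the effect over the arms of 0.19 missed the threshold (SE 0.06, edgeR adjusted p = 0.15). SLBP, which binds the stem-loop of histone mRNA, had 0.08, 0.06 and 0.02, ATAD2, a bromodomain ATPase, 0.03, 0.14 and 0.00, and WDR76 0.00, 0.09 and -0.02 in the 3 arms.

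Genes of fork protection, checkpoint and repair stayed within 1.2-fold in every arm. TIPIN, part of the fork protection complex, was at 19.9 CPM in HA FOSL1 cells, against 18.4 CPM in the HA control, and 19.8 with gRNA2 and 20.8 with gRNA3, against 17.8 CPM in the VPR control, above the control each time (effect 0.18, SE 0.07, edgeR adjusted p = 0.17). BLM, a RecQ helicase, was at 9.13 CPM in HA FOSL1 cells, against 10.7 CPM in the HA control, and 10.3 with gRNA2 and 9.50 with gRNA3, against 10.4 CPM in the VPR control. USP1, which removes ubiquitin from PCNA, had log2 ratios of -0.18, -0.02 and -0.05 in HA, gRNA2 and gRNA3. CLSPN (claspin), a mediator of the checkpoint kinase CHK1, had 0.02, 0.06 and 0.00, and DTL, which marks CDT1 for destruction, had -0.09, 0.03 and -0.02. The repair genes RAD51AP1, EXO1 and BRIP1 had 0.14, 0.04 and -0.10 in HA, and BRIP1 had the lowest level of the 51 genes, between 5.21 and 5.65 CPM.

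Of the genes that drive entry into S phase, CCNE1 and CCNE2 encode E cyclins, E2F1 an activator and E2F8 a repressor of the E2F family. CCNE1 was at 20.9 CPM in HA FOSL1 cells, against 18.3 CPM in the HA control, and 18.2 with gRNA2 and 19.0 with gRNA3, against 18.9 CPM in the VPR control. It was above its control in HA (log2 0.18) and near it with the guides, whereas CCNE2 was below in HA (-0.17). E2F1 was at 29.7 CPM in HA FOSL1 cells, against 33.5 CPM in the HA control, and 34.9 with gRNA2 and 33.5 with gRNA3, against 35.4 CPM in the VPR control, below the control in all 3 arms, with log2 ratios of -0.17, -0.02 and -0.08, and E2F8 had 0.05, 0.02 and -0.07. CASP8AP2, which is needed for the processing of histone mRNA, was at 40.4 CPM in HA FOSL1 cells, against 48.5 CPM in the HA control, and 45.3 with gRNA2 and 45.0 with gRNA3, against 48.8 CPM in the VPR control. It was below the control in every arm, with an effect of -0.15 (SE 0.06, edgeR adjusted p = 0.17).

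Over all roles 18 of the 51 genes were below the control in each of the 3 arms, against 32.8% of all genes, and 12 were above it in each, against 28.3%. The gRNA2 and gRNA3 arms share the VPR control, so their signs are not independent. Between the guides the ratios (gRNA3 over gRNA2) ran from -0.14 for ATAD2 to 0.07 for TIPIN, and 50 of 51 genes were within 1.1-fold. None of the 51 reached 1.2-fold between the guides, against 0.558% of all genes higher and 0.842% lower.

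The share of cells with a UMI of a gene was compared at equal depth. In cells thinned to 5000 UMIs, 33 of 51 genes had a lower share in HA FOSL1 cells than in the HA control, against 52.9% of all genes at 5 CPM or more. With gRNA2 18 of 51 were lower than in the VPR control, against 48.9% of all genes, and with gRNA3 27 of 51, against 51.6%. In whole cells, where the FOSL1 cells were the deeper ones, 0 of the 51 were lower in HA, where 981 of the 9853 genes at 5 CPM or more were. With gRNA2 it was 5 of the 51 and 1966 of the 9853, and with gRNA3 1 of the 51 and 1352 of the 9853. Shares in the HA control ran from 2.50% for BRIP1 to 73.0% for PCNA. MCM7 had a UMI in 28.6% of HA FOSL1 cells against 37.6% of HA control cells, and in 35.6% and 36.8% of gRNA2 and gRNA3 cells against 38.6% of VPR control cells. NASP had 59.7% against 68.3% in HA, and 68.7% and 66.5% against 69.6% in VPR. HELLS had 23.0% against 29.4% in HA, and 31.0% and 29.7% against 30.6% in VPR.

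Exact binomial 95% intervals of the thinned shares did not overlap for 6 genes in HA: MCM7, POLD3, NASP, HELLS and CDCA7 with a lower share, and RRM2 with a higher one (34.9% against 30.7%). Of all genes 13.4% were lower and 14.8% higher by this measure in HA, 4.33% and 5.22% with gRNA2, and 7.0% and 7.02% with gRNA3, so the 5 of 51 lower and 1 of 51 higher in HA were no larger a share than that of all genes. With gRNA2 this held for CDCA7 (20.9% against 24.6%) and ATAD2 (35.6% against 31.0%). With gRNA3 it held for MCM5 (28.0% against 24.0%), GINS2 (32.5% against 28.7%), RRM1 (31.6% against 35.2%) and UBR7 (3.26% against 4.64%). The pool holds 1 line and no cell type that should lack these genes, so the part of free RNA in a share was not tested.

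**Figure D3:**
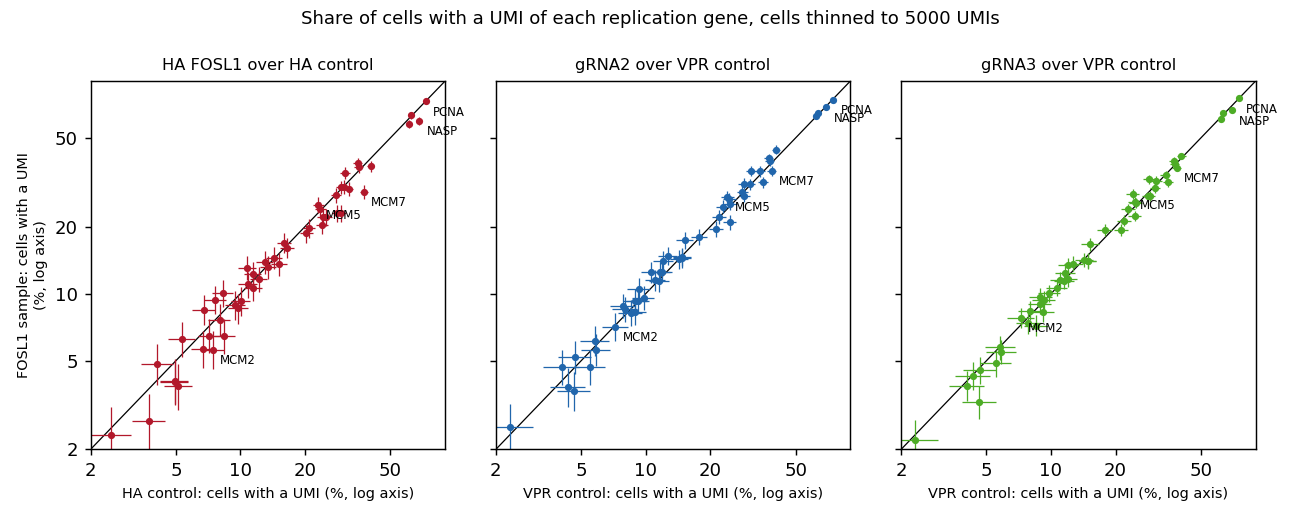
Share of cells with a UMI of each of the 51 genes after thinning to 5000 UMIs, FOSL1 sample (vertical axis, %, log) against its control (horizontal axis, %, log), one panel per arm; bars are exact 95% binomial intervals and the line marks equal shares. In the HA panel MCM7, at 28.6% and 37.6%, and NASP, at 59.7% and 68.3%, lie below the line, and PCNA lies on it.

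Cells of each sample differed widely in the sum of these genes. In cells thinned to 5000 UMIs the mean sum over the 51 genes was 13.7 UMIs per HA FOSL1 cell (SD 7.53 over cells) against 14.8 in the HA control (SD 8.50), and 15.6 with gRNA2 and 15.1 with gRNA3 against 15.3 in the VPR control. The median was 12 UMIs in both HA samples and 13 in all 3 VPR samples. The 75th percentile was 19 UMIs in HA FOSL1 cells against 21 in the HA control, and the 90th was 25 against 27. At least 21 UMIs, the 75th percentile of all thinned cells, were found in 20.7% of HA FOSL1 cells (18.8% to 22.6%) against 25.2% of HA control cells (23.7% to 26.7%). The shares were 28.3% with gRNA2 (26.6% to 30.1%) and 26.2% with gRNA3 (24.9% to 27.5%) against 26.2% in the VPR control (24.6% to 28.0%). In whole cells the order in HA turned round, with 31.0% of HA FOSL1 cells and 19.1% of HA control cells at or above the 75th percentile of 84 UMIs. With gRNA2 and gRNA3 28.2% of whole cells each lay there, against 22.5% in the VPR control. In HA and with gRNA3 this whole-cell order ran against that of the summed CPM, and with gRNA2 it ran the same way.

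**Figure D4:**
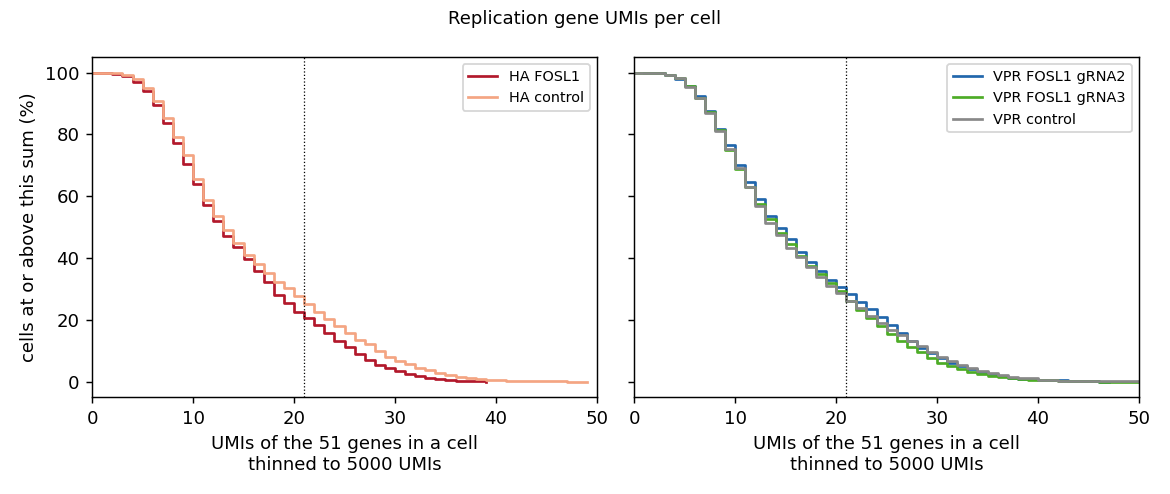
Share of cells (vertical axis, %) with at least a given sum of UMIs over the 51 genes (horizontal axis) after thinning each cell to 5000 UMIs, for the HA samples (left) and the VPR samples (right); the dotted line marks 21 UMIs. The HA FOSL1 curve lies below the HA control on the right side, at 20.7% and 25.2% at the dotted line, and the VPR curves lie close together.

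A split by genes outside the group gave a similar result. Thinned cells were divided at 22 UMIs of 56 other replication genes, the 75th percentile of that sum. The high class held 18.2% of HA FOSL1 cells (330 of 1818) against 26.3% of HA control cells (885 of 3367), and 29.1% with gRNA2 and 27.5% with gRNA3 against 27.7% in the VPR control. Within the high class the 51 genes gave a mean of 20.2 UMIs per HA FOSL1 cell against 21.9 in the HA control, and 22.5 with gRNA2 and 21.2 with gRNA3 against 22.7 in the VPR control. Within the low class they gave 12.3 UMIs against 12.2 in HA, and 12.7 and 12.8 against 12.4 in VPR. Both the share of high cells and the level within them were lower in HA FOSL1 cells. The level in the low class was not lower. The 56 other genes were themselves lower in HA FOSL1 cells, at a sum of 3319.0 CPM against 3573.4 CPM in the HA control. Within the high class they averaged 25.261 UMIs per HA FOSL1 cell against 25.944 in the HA control. The averages were 26.123 with gRNA2 and 26.005 with gRNA3 against 26.378 in the VPR control. Whether the 51 genes differed between cells with equal sums of the 56 was not tested. The lower level within high cells was not particular to HA, as gRNA3 cells had it with a share close to the control. In the high class the median log2 ratio of the 51 genes was -0.15 in HA, -0.03 with gRNA2 and -0.12 with gRNA3.

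**Figure D5:**
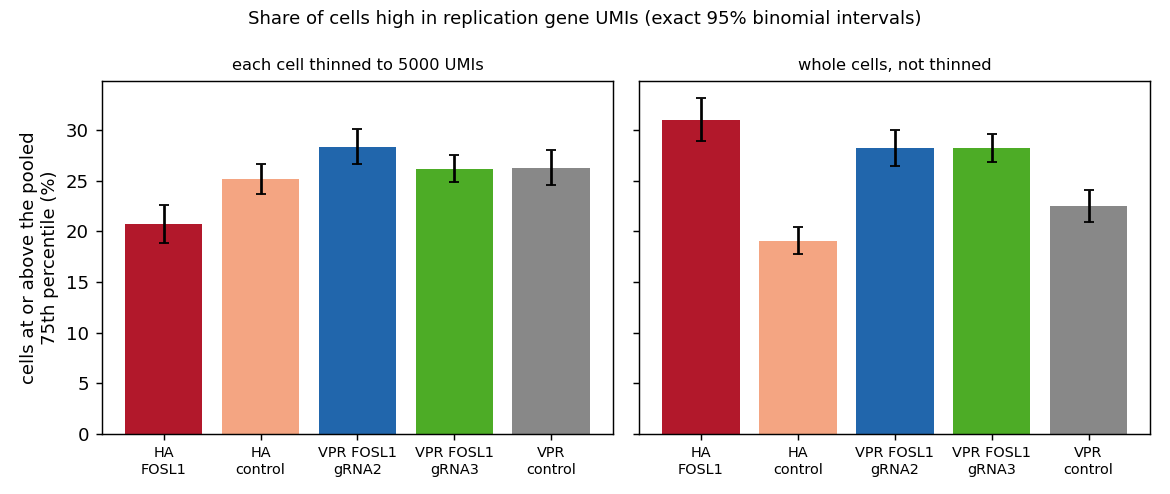
Share of cells (vertical axis, %) at or above the 75th percentile of summed replication gene UMIs over all cells, in each sample, for cells thinned to 5000 UMIs (left, 21 UMIs) and for whole cells (right, 84 UMIs); bars start at 0 and lines are exact 95% binomial intervals. HA FOSL1 is the lowest bar on the left at 20.7% and the highest on the right at 31.0%.

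All 51 genes were higher in the high class than in the low class of both controls, with a median ratio of 1.82 in the HA control and 1.89 in the VPR control. EXO1 differed the most, by 4.15 and 4.22 times in the HA and VPR controls, and CDCA7 the least, by 1.17 and 1.06 times. Across single cells of the controls the genes went with the sum of the other 50 to different degrees. Pearson's r was highest for CLSPN (0.48 over 3367 HA control cells, 0.50 over 2587 VPR control cells) and PCNA (0.47 in both), and low for POLA1 (0.06 and 0.07) and TIPIN (0.07 and 0.05). These r values run over cells of 1 library that share depth, are not adjusted for a gene's level and are given as a description. With the sum of 54 G2 and mitosis genes, RRM2 had the highest r (0.27 and 0.29) and CDCA7 the lowest (-0.19 and -0.17). The sum of the 51 genes had an r of 0.54 to 0.62 with the other replication genes within each of the 5 samples and of -0.01 to 0.04 with the G2 and mitosis genes.

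Cell cycle calls on thinned cells put 41.6% of HA FOSL1 cells in S phase (39.3% to 43.9%) against 44.0% of HA control cells (42.3% to 45.7%). With gRNA2 the share was 47.5% (45.6% to 49.5%) and with gRNA3 46.6% (45.1% to 48.1%), against 45.0% in the VPR control (43.1% to 46.9%). In whole cells the shares were 29.7% against 30.5% in HA, and 33.9% and 33.6% against 31.1% in VPR. Of the 43 genes that make the S phase score, 39 belong to the 51, so the calls are no separate measure.

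Genes of replication outside the 51 were counted in the same way. Of 56 further replication genes, edgeR called 0 with FOSL1 (DESeq2 0), and at an unadjusted p under 0.05 there were 2 higher and 4 lower, against 13.4% and 12.6% of all genes. At 5 CPM or more there were 52. In HA 0 of these 52 were at least 1.2-fold higher and 6 at least 1.2-fold lower, against 16.3% and 17.7% of all genes, and their median log2 ratio was -0.10 in HA, 0.00 with gRNA2 and -0.02 with gRNA3. The edgeR interaction called 5 of 56 lower in HA, against 3.81% of all genes, and 0 higher, against 8.37%, where DESeq2 called 0: POLD2 (-0.29 log2), LIG1, GINS4 (-0.32), TIMELESS and WDHD1 (-0.40). TIMELESS, the partner of TIPIN at the fork, was at 14.4 CPM in HA FOSL1 cells, against 19.8 CPM in the HA control, and 18.3 with gRNA2 and 18.4 with gRNA3, against 18.7 CPM in the VPR control (interaction -0.41, edgeR adjusted p = 0.024), and LIG1, the ligase that joins lagging-strand pieces, was at 30.7 CPM in HA FOSL1 cells, against 39.5 CPM in the HA control, and 42.3 with gRNA2 and 40.7 with gRNA3, against 41.8 CPM in the VPR control (interaction -0.33, edgeR adjusted p = 0.029). Both were lowest in HA FOSL1 cells. Farthest below the HA control among them was GINS4 (-0.46), followed by TIMELESS (-0.43) and DNA2 (-0.39), and farthest above were POLE4 (0.26), TOPBP1 (0.16) and CENPU (0.15). With gRNA2 the ends of the list were CDK2 (-0.27), DNA2 (-0.20) and RECQL4 (-0.19) below, and RPA1 (0.18), TK1 (0.15) and POLE3 (0.14) above. With gRNA3 they were DNA2 (-0.28), ESCO2 (-0.22) and RECQL4 (-0.21) below, and POLE4 (0.18), TK1 (0.15) and ORC5 (0.12) above.

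Genes of G2 and mitosis, set beside them, had a median log2 ratio of -0.01 in HA over 54 genes, 0.02 with gRNA2 and -0.08 with gRNA3. With FOSL1, edgeR called 0 of 54 (DESeq2 0), and at an unadjusted p under 0.05 there were 6 higher and 6 lower, against 13.4% and 12.6% of all genes. The interaction, in edgeR as in DESeq2, called HMGB2 lower (-0.34, edgeR adjusted p = 0.0098) and JPT1 higher in HA (0.29, edgeR adjusted p = 0.010), against 3.81% of all genes lower and 8.37% higher. Per thinned cell their sum was 27.8 UMIs in both HA samples, and 28.5 with gRNA2 and 27.3 with gRNA3 against 28.1 in the VPR control. In HA, CKAP2L (0.44), CKS1B (0.34) and ANLN (0.33) lay farthest above the control, and HMGB2 (-0.47), TMPO (-0.37) and ANP32E (-0.32) farthest below. With gRNA2 these were PIMREG (0.21), CDCA8 (0.20) and HJURP (0.20) above, and LBR (-0.17), CENPF (-0.13) and ANP32E (-0.12) below. With gRNA3 they were CKS1B (0.15), CKAP2L (0.14) and PIMREG (0.12) above, and CENPF (-0.24), TMPO (-0.23) and ECT2 (-0.22) below.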

How the data were processed

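The authors deposited raw UMI counts per gene and barcode, made with Cell Ranger 4 per the file headers, on build hg38 per the submitters' processing notes; which annotation they used was not given in the sources used here. Their deposited table assigns each of 21228 called cells to a hashtag, multiplet, blank or none, with the assignment probability as a fraction made by the authors. The hashtags with the prefix GOF were taken as the HA samples by elimination, and the labels speak of 6 stained samples where the design names 5. Of 15371 cells assigned to 1 sample, 14642 with at least 1500 genes and at most 20% mitochondrial UMIs were kept. Multiplets (5181), unassigned cells (402) and blanks (274) were left out; doublets within a sample carry 1 hashtag and were not called. No cell barcode was shared between samples.

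UMIs were summed per sample and scaled to CPM of gene UMIs. Log2 ratios carry a pseudocount of 1 CPM, which understates the ratio of low genes, and exact conditional binomial intervals; shares have exact Clopper-Pearson intervals. Intervals cover counting error only. Counts of genes past a fold use genes that average 5 CPM or more. Thinning to 5000 UMIs left out 5 to 13 cells per sample. Only tags near the 3' end were counted, so levels are not compared between genes per length. The fits used edgeR 4.0.16 (glmQLFit, glmQLFTest, TMM, filterByExpr, system as covariate, 2 residual degrees of freedom, 1 for the interaction), with DESeq2 1.42.0 as alternative. Standard errors given with edgeR fits are the absolute log2 change divided by the square root of the quasi-likelihood F statistic. Phases were scored with scanpy 1.11.5. The fits and ratios were tested on simulated data. The genes, lists and tests were chosen with earlier results of these data known. Every replication gene is named; values in all samples are given for those past the model's threshold and, per arm, for the 5 farthest above and below the control, and of the other lists those called and the 3 farthest each way.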

Additional observations from a re-analysis of the deposited data

Results flagged for a closer look

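The edgeR interaction tests whether the effect of FOSL1 differs between the HA arm and the VPR arms. The HA samples and the VPR control have no repeat in this model, so its p-values do not measure a spread of the HA samples. At an adjusted p under 0.05 it called 3 of 51 replication genes lower in HA, against 3.81% of all genes. It called 0 higher, against 8.37%. The difference was -0.43 log2 for MCM2 (SE 0.11, edgeR adjusted p = 0.025), -0.27 for RFC3 (SE 0.08, edgeR adjusted p = 0.044) and -0.24 for NASP (SE 0.07, edgeR adjusted p = 0.040). Each was lower in the HA arm. Under DESeq2 the differences were of like size, at -0.42 for MCM2 (adjusted p = 0.97), -0.27 for RFC3 (adjusted p = 0.77) and -0.23 for NASP (adjusted p = 0.35), and in cells thinned to 5000 UMIs the difference was -0.53 for MCM2 (edgeR adjusted p = 0.15), -0.31 for RFC3 (edgeR adjusted p = 0.14) and -0.30 for NASP (edgeR adjusted p = 0.023). The median HA FOSL1 cell also held 20768.5 UMIs, against 15401.5 for HA control cells.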

How the results depend on the processing

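No paired analysis was possible because each group holds 1 sample and the labels carry no replicate numbers. Every choice below was planned. Among single replication genes past a threshold in the main setting, no ratio or fitted difference changed sign. None of the 1836 ratios of single replication genes under an alternative reached 1.5-fold. The ratios of the sums with gRNA2 and gRNA3 did change sign under some settings, given below. In HA the 8 genes at least 1.2-fold lower stayed between -0.48 and -0.09. The count of genes that far below was 5 with a pseudocount of 5 CPM and 5 with a mean of at least 20 CPM. It was 11 in thinned cells and 10 against the VPR control. In the other direction, 1 gene was higher with DESeq2 size factors and 3 in thinned cells. With gRNA2, 1 gene was higher at a pseudocount of 0.1 CPM and 4 against the HA control, and 2 were lower at 10% mitochondrial UMIs and 1 in thinned cells. With gRNA3, 0 were higher at a pseudocount of 5 CPM, without the 10% of cells with the most UMIs and in thinned cells, and 2 against the HA control; 0 were lower under TMM, DESeq2 size factors, a pseudocount of 5 CPM, a mean of at least 20 CPM, all assigned cells and the HA control.

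The log2 ratio of the sums in HA was -0.063 under TMM, -0.046 under DESeq2 size factors and -0.154 against the VPR control. With gRNA2 it was 0.027 under DESeq2 size factors, 0.027 in thinned cells, 0.070 against the HA control and -0.067 at 10% mitochondrial UMIs. With gRNA3 it was 0.0049 under TMM, 0.012 under DESeq2 size factors, 0.040 against the HA control and -0.065 at 10% mitochondrial UMIs. At 10% mitochondrial UMIs the HA ratio was -0.098, so each arm lay below its control. That setting left 743 to 1779 cells per sample.

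All genes edgeR called with FOSL1 numbered 248, against 1115 by DESeq2, 667 in thinned cells, 1984 with no filter on low counts and 375 without the cells with the most UMIs. Leaving out a sample gave 0 to 5937 genes in all, 0 to 5 replication genes higher and 0 to 13 lower. The interaction called 1958 genes, against 440 by DESeq2 and 961 in thinned cells; replication genes lower in HA numbered 3, against 0 by DESeq2, 5 in all assigned cells, 6 with no filter and 8 without the cells with the most UMIs. No sample was left out of the interaction, which has 1 residual degree of freedom. Genes with a lower share of cells numbered 0, 5 and 1 in whole cells for HA, gRNA2 and gRNA3. The HA difference in cells high for the 51 genes was -4.50 percentage points. It was -1.75 at the 50th percentile (-4.63 to 1.13), -4.94 at the 90th and -6.27 at 10000 UMIs. In cells high for other replication genes it was -8.13, against -4.53 at the 50th and -4.87 at the 90th percentile. For the 51 genes the gRNA3 difference was -0.09, and -2.01 at the 90th percentile (-3.66 to -0.40). For other replication genes the gRNA2 difference was 1.41, and 3.88 at the 50th percentile (1.13 to 6.63). The cause was not tested for any of these. At 42058533 or more UMIs per sample, counting intervals of the ratios were widest for the lowest genes, BRIP1 and UBR7.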

Other observations

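Genes that act ahead of S phase were looked at as well. Of 18 G1 cyclins, kinases and cell cycle brakes, 17 entered the edgeR model, which called CDK6 and CDKN1C at an adjusted p under 0.05, against 0.9% of all genes called higher and 0.706% lower. CDK6, a partner kinase of the D cyclins, rose by 0.43 log2 (SE 0.06, edgeR adjusted p = 0.047, higher in 3 of 3 arms) and was at 69.9 CPM in HA FOSL1 cells, against 50.5 CPM in the HA control, and 50.4 with gRNA2 and 52.8 with gRNA3, against 40.1 CPM in the VPR control. CDKN1C, an inhibitor of cyclin-dependent kinases, had -1.15 log2 (SE 0.16, edgeR adjusted p = 0.047, lower in 3 of 3 arms) at levels under 5 CPM, which were 1.78 CPM in HA FOSL1 cells, against 3.86 CPM in the HA control, and 1.48 with gRNA2 and 1.88 with gRNA3, against 3.95 CPM in the VPR control. Without the gRNA2 or the gRNA3 sample, edgeR called 0 genes of any kind (2614 and 2371 at an unadjusted p under 0.05). DESeq2 called CDK6 and CDKN1C as well. The edgeR interaction called CCND1, CDKN1A and BTG1 higher in the HA arm, against 8.37% of all genes, of which DESeq2 called CCND1 and BTG1.

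CCND1, the gene of cyclin D1, was at 762 CPM in HA FOSL1 cells, against 431 CPM in the HA control, and 540.3 with gRNA2 and 516 with gRNA3, against 482 CPM in the VPR control (interaction 0.71 log2, edgeR adjusted p = 4.2e-05). CDKN1A, the gene of the inhibitor p21, was at 14.6 CPM in HA FOSL1 cells, against 10.00 CPM in the HA control, and 6.87 with gRNA2 and 5.86 with gRNA3, against 8.87 CPM in the VPR control, above the control in HA and below it with both guides (interaction 1.06 log2, edgeR adjusted p = 0.00097). BTG1, an antiproliferative gene, had log2 ratios of 0.33, -0.15 and -0.04 in HA, gRNA2 and gRNA3 (interaction 0.44, edgeR adjusted p = 0.0062). In HA the genes farthest above the control were CCND1 (0.82), CDKN1A (0.50) and CDK6 (0.46), and the farthest below were CDKN2B (-0.30), CDK4 (-0.27) and MYC (-0.21). With gRNA2 the lowest were CDKN2B (-0.41), CDKN1A (-0.33) and CDKN2C (-0.15) and the highest CDK6 (0.32), CCND1 (0.17) and CDKN2D (0.14). With gRNA3 the lowest were CDKN1A (-0.53), CDKN2B (-0.37) and RBL1 (-0.24) and the highest CDK6 (0.39), CCND1 (0.10) and CCND3 (0.08). RB1, the retinoblastoma gene, was between 2.39 and 2.78 CPM in all 5 samples.

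Among cells in no sample, the 51 replication genes summed to 2967 CPM in multiplets, 2923 CPM in unassigned cells and 3059 CPM in blanks, values within the range of 2858 to 3209 CPM of the 5 samples.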
